A study of Mus musculus with 6 samples.

Results

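The 6 genes of the platelet-derived growth factor (PDGF) system described here are the 4 ligand genes Pdgfa, Pdgfb, Pdgfc and Pdgfd and the 2 receptor genes Pdgfra and Pdgfrb. They were chosen by gene name and were 6 of 18710 genes tested. Each was measured by 1 probe set that names no other gene, so no member had a choice of probe set. Each lay above the filter on low values, which asked for a log2 value of 4 or more (an intensity of 15) in 3 or more arrays. The values come from mouse embryonic spleens at E13.5, measured as total RNA on Affymetrix arrays, with 3 arrays of Tlx1 heterozygous and 3 of Tlx1 homozygous embryos. Homozygous is read here as homozygous for an altered Tlx1 allele, of which heterozygous embryos carry a single copy, and no wild-type spleen enters the comparison. The labels do not name the allele, the strain or the sex, nor whether an array holds 1 embryo or a pool. The p-values thus cover no more than the spread of these arrays, part of which may be technical.

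PDGF ligands are secreted dimers that bring receptor tyrosine kinases together on mesenchymal cells and so drive their growth, survival and migration. The alpha receptor, encoded by Pdgfra, is a hallmark of embryonic mesenchyme and binds dimers of the A, B and C chains. The beta receptor, encoded by Pdgfrb, marks pericytes and other perivascular mesenchyme, and it answers mainly to the B chain released by endothelium and platelets and to the D chain. The A and B chains are cut inside the cell by proprotein convertases, while the C and D chains are secreted in a latent form whose CUB domain has to be removed outside the cell.

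In homozygous spleens 3 of the 6 members fell, namely Pdgfb, Pdgfd and Pdgfrb, and 1 rose, Pdgfc. Pdgfa and Pdgfra did not pass. Across all genes tested, 17.0% passed, 10.4% higher and 6.56% lower, at an adjusted p below 0.05 in limma with Benjamini-Hochberg adjustment over all genes. All the changes were small, from 1.17-fold to 1.33-fold. On the log2 fold change, 2.33% of the genes tested lay below Pdgfb, 3.95% below Pdgfd and 8.06% below Pdgfrb, while 83.1% lay below Pdgfc. The groups did not overlap for the same 4 members, 1 with homozygous spleens above and 3 below. Over all genes tested the groups were separate for 38.3%, with homozygous above for 21.1% and below for 17.2%.

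**Figure D1:**
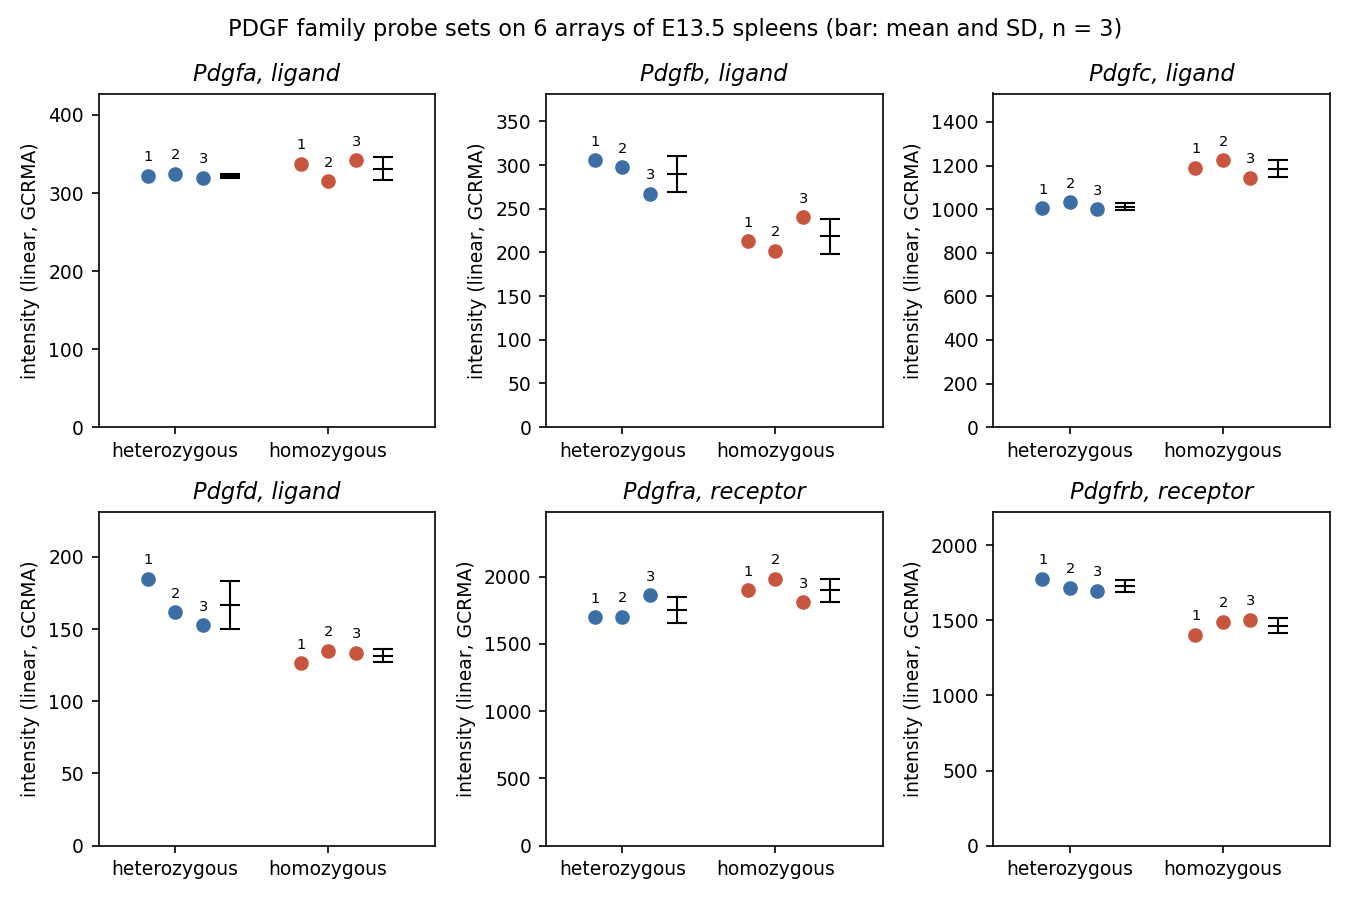
Intensity of each PDGF member on each array, on a linear axis from 0, with the replicate number beside each point, the group mean and its SD (n = 3). The heterozygous points of Pdgfb, Pdgfd and Pdgfrb all lie above the homozygous ones, those of Pdgfc all lie below, and those of Pdgfa and Pdgfra are mixed.

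Pdgfb, the ligand gene through which endothelium recruits pericytes, showed the largest change of the family. Its intensity was 306, 297 and 267 on heterozygous arrays 1 to 3 and 213, 202 and 240 on homozygous arrays 1 to 3. Every homozygous value lay below every heterozygous value, with heterozygous array 3 and homozygous array 3 closest to each other. The means were 290.0 ± 20.3 and 218 ± 19.8 (SD, n = 3), a log2 fold change (homozygous minus heterozygous) of −0.41 ± 0.09 (SE), or 1.33-fold lower, with an adjusted p of 0.0159 in limma. Its 95% interval ran from −0.60 to −0.22. The call was lost without heterozygous array 1 (−0.37), without heterozygous array 2 (−0.39) and without homozygous array 1 (−0.39), with adjusted p of up to 0.0634.

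Pdgfa, which encodes the ligand most closely tied to the alpha receptor, stayed within its spread. Heterozygous arrays gave 322, 325 and 319, and homozygous arrays 337, 315 and 342. The lowest homozygous value lay below all heterozygous values and the other 2 above them. The log2 fold change was 0.04 ± 0.06 (SE; adjusted p = 0.676 in limma), with a 95% interval of −0.10 to 0.18. A change in Pdgfa as deep as that estimated for Pdgfb lies outside this interval. The heterozygous arrays were close to each other (SD 2.63) and the homozygous ones less so (SD 14.3, n = 3).

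The latent ligand genes Pdgfc and Pdgfd moved in opposite directions. Pdgfc, the CUB-domain ligand of the alpha receptor, read 1004, 1031 and 999 in heterozygous and 1189, 1224 and 1144 in homozygous spleens. All 3 homozygous arrays were above the brightest heterozygous array. It rose 1.17-fold, with a log2 fold change of 0.23 ± 0.06 (SE) and an adjusted p of 0.0334 in limma. The means were 1011 ± 17.1 and 1186 ± 40.3 (SD, n = 3). The estimate varied little when an array was left out (0.21 to 0.25), but the call held in 1 of the 6 refits, that without homozygous array 3, and the adjusted p reached 0.0991 without heterozygous array 1.

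Pdgfd, the CUB-domain ligand of the beta receptor, read 185, 162 and 153 in heterozygous and 126, 135 and 134 in homozygous spleens. The heterozygous arrays were spread out, with array 1 highest, and the homozygous arrays lay close together below them. The means were 166 ± 16.6 and 132 ± 4.75 (SD, n = 3), and the log2 fold change was −0.33 ± 0.08 (SE; adjusted p = 0.0272 in limma), or 1.26-fold lower. Without heterozygous array 1 the estimate shrank to −0.25 and the call was lost. It was also lost without heterozygous array 2 (−0.35), homozygous array 1 (−0.30) or homozygous array 3 (−0.34).

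Since these genes of 1 ligand class passed in opposite directions, the bases before their annotated starts are printed here from RefSeq (GRCm38.p6, forward strand), 5′ to 3′, up to the first annotated base of each gene. They are chr3:81036166-81036415 for Pdgfc and chr9:6168236-6168362 for Pdgfd, and capitals mark a TATA box, TATAAA.
Pdgfc: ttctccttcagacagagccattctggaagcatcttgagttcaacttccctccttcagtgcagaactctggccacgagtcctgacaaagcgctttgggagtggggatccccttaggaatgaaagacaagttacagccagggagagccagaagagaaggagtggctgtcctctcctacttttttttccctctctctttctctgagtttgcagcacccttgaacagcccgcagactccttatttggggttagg
Pdgfd: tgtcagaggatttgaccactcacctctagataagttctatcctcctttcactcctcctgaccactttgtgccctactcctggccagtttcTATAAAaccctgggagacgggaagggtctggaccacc
The TATAAA of Pdgfd begins 37 bases before the first annotated base of the gene, and the Pdgfc stretch holds none. Among 32851 RefSeq promoter windows, searched on both strands over the 250 bases before each start, 12.4% hold TATAAA. The same windows, 5 of them for Pdgfa, Pdgfc, Pdgfd and Pdgfra, were searched for AGGTCA (the half-site of retinoic acid and other nuclear receptors, in 14% of all windows), TAAT (a homeodomain core, in 54.9%) and GGGCGG (a GC box, in 32.7%). AGGTCA and TAAT had no match in any of the 5, and GGGCGG matched only in the windows of Pdgfa, which has 2 annotated starts here. The search had no window for Pdgfb or Pdgfrb. For Pdgfd the printed stretch has 127 bases, whereas the searched window has 250. A match is a description of the letters and says nothing of binding.

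Of the receptors, Pdgfrb fell and Pdgfra did not pass. Pdgfrb, the pericyte receptor gene, read 1778, 1716 and 1696 in heterozygous and 1406, 1489 and 1503 in homozygous spleens. The dimmest heterozygous array stood above the brightest homozygous array by more than the SD of either group. The means were 1730 ± 42.6 and 1466 ± 52.5 (SD, n = 3), a log2 fold change of −0.24 ± 0.06 (SE), or 1.18-fold lower (adjusted p = 0.0312 in limma). The call was kept in 1 of the 6 refits without an array, that without homozygous array 2, although the estimates stayed between −0.26 and −0.21 and the adjusted p went no higher than 0.107. The largest of these p came without homozygous array 1.

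Pdgfra, the mesenchymal receptor gene, read 1696, 1700 and 1860 in heterozygous and 1898, 1984 and 1810 in homozygous spleens. Heterozygous array 3 lay above homozygous array 3, so the groups overlapped. The log2 fold change was 0.12 ± 0.07 (SE; adjusted p = 0.269 in limma), with a 95% interval of −0.04 to 0.27. A fall of the size seen in Pdgfrb lies outside this interval, while a rise of the size estimated for Pdgfc lies inside it.

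Because a call in one gene and none in another does not show that they differ, the log2 values of 2 members were subtracted within each array, for 7 pairs in all, and the groups were compared with an exact two-sided permutation test. With 3 arrays against 3 that test cannot go below 0.10, so none of the pairs could pass. Pdgfra minus Pdgfrb was −0.07 to 0.13 in heterozygous and 0.27 to 0.43 in homozygous arrays, a shift of 0.35 toward Pdgfra with no overlap (exact p = 0.1, 0.233 adjusted over the 7 pairs). Pdgfa minus Pdgfc shifted by −0.19 and Pdgfc minus Pdgfra by 0.11, both without overlap and with the same p. For Pdgfb minus Pdgfrb (shift −0.17) and Pdgfd minus Pdgfrb (−0.09), the ligand and receptor pairs that fell together, the groups overlapped (exact p = 0.2 for both, 0.28 adjusted). Pdgfa minus Pdgfra (−0.07) and Pdgfb minus Pdgfd (−0.08) overlapped as well (exact p = 0.5 for both).

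**Figure D2:**
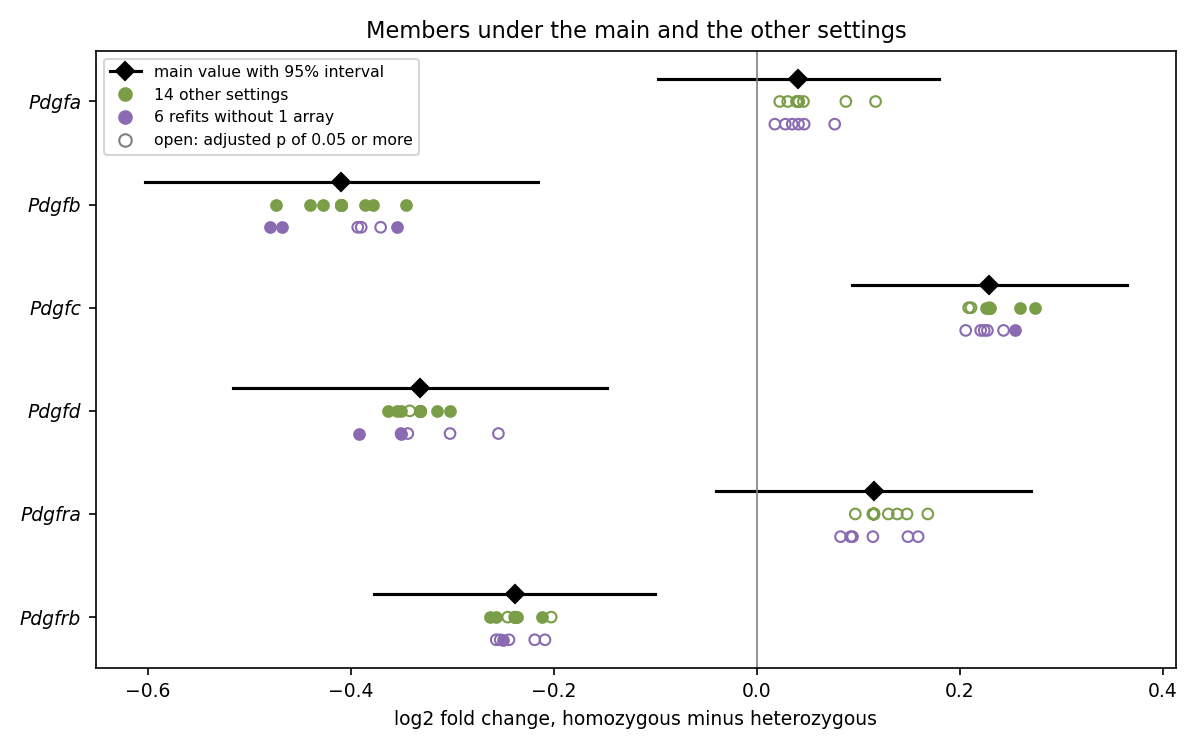
Log2 fold change of each member, homozygous minus heterozygous, with its 95% interval (black), under 14 other settings (green) and in 6 refits without 1 array (purple), where open circles have an adjusted p of 0.05 or more. No point of any member crosses 0, but the points of Pdgfc and Pdgfrb are open in 5 of the 6 refits.

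The Y-linked genes showed that the arrays differ in more than genotype. Their mean log2 level, over 3 such genes, was 8.76 and 8.99 on heterozygous arrays 1 and 3 and 8.07 to 8.22 on the other 4 arrays. With that level in the model Pdgfb kept its call (−0.47, adjusted p = 0.0418 in limma), whereas Pdgfc (0.21, adjusted p = 0.169), Pdgfd (−0.34, adjusted p = 0.102) and Pdgfrb (−0.25, adjusted p = 0.125) lost theirs. Array medians were 106 to 110 intensity units, and the correlation of arrays across genes (log2 values) was 0.995 to 0.997 inside a group and 0.989 to 0.993 from group to group. Tlx1 itself fell from 750 ± 65.3 to 193 ± 19.9 (SD, n = 3), and whether its probe set lies in the altered part of the gene was not tested.

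Spleen markers were present, and the lists of other cell types are given because the members belong to different cells. The spleen factor genes Nkx2-5 (−1.36) and Nkx3-2 (−1.23) were bright in heterozygous spleens, at 614 and 555 on average, and fell. Of 6 tested spleen mesenchyme markers 4 fell and none rose, and Tlx1, the gene altered by genotype, is 1 of those that fell. Among all genes tested 6.56% were lower and 10.4% higher. Barx1 (0.27, adjusted p = 0.0517 in limma) and Nr2f2 (0.16, adjusted p = 0.0976) did not pass. Both had all homozygous values above all heterozygous ones, and both were chosen after their values were seen. In a whole organ, fewer cells of a type and less RNA per cell cannot be told apart.

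Endothelium, the main textbook source of PDGF-B, gave lower signals in the same samples as Pdgfb. Of 16 endothelial markers 11 fell and none rose, with a median log2 fold change of −0.33 against 0.02 for all genes tested. Among all genes tested 6.56% fell and 10.4% rose. The angiopoietin receptor gene Tek fell by 0.85 on the log2 scale, the junction gene Esam by 0.55 and the orphan receptor gene Tie1 by 0.55. The summed intensity of the list was 10638 to 10946 on heterozygous and 8042 to 8928 on homozygous arrays, and no marker was at 0. The count that fell ranged from 6 to 12 when 1 array was left out and from 6 to 14 under other settings, and both counts of 6 came without homozygous array 1 and with the Y-linked level in the model. Set against the mean log2 value of these 16 markers on the same array, Pdgfb was −1.16 to −0.99 in heterozygous and −1.16 to −1.02 in homozygous spleens. The ranges overlapped almost fully, with a difference in means of −0.03. Pdgfd did the same, at −1.96 to −1.72 and −1.86 to −1.73. The second textbook source of PDGF-B, megakaryocytes and platelets, had 3 of 8 tested markers lower and none higher (median −0.19), with a summed intensity of 1455 to 1743 on heterozygous and 980 to 1229 on homozygous arrays. Much of that difference was Ppbp, and without it the sums were 997 to 1117 and 874 to 974. The platelet chemokine gene Ppbp fell by 1.73, the receptor gene Clec1b by 0.67 and the adhesion gene Gp5 by 0.33, the last with its call lost without heterozygous array 2 or homozygous array 1.

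Pericyte and smooth muscle markers, the company of Pdgfrb, were mixed. Of 17 mural markers 3 rose and 1 fell, which is 17.6% and 5.88% beside 10.4% and 6.56% of all genes tested. The median was 0.13, and the summed intensity was 6502 to 6702 on heterozygous and 7343 to 7769 on homozygous arrays. The intermediate filament gene Des rose by 0.64, and so did the subunit genes of a pericyte potassium channel, Abcc9 (0.56) and Kcnj8 (0.53). The peptidase gene Anpep fell (−0.51), and the adhesion gene Mcam had its homozygous values below all heterozygous ones but did not pass (−0.15, adjusted p = 0.101 in limma), both chosen after their values were seen. Rgs5 and Cspg4, also chosen after their values were seen and both widely used to mark pericytes, did not pass (−0.15, adjusted p = 0.334, and 0.02, adjusted p = 0.88, in limma). Set against the mean of the 17 markers on the same array, Pdgfrb was at 3.02 to 3.09 in heterozygous and 2.63 to 2.78 in homozygous spleens. These ranges did not overlap. The difference of −0.36 holds both the fall of Pdgfrb (−0.24) and the mean of the 17 markers, which was 0.12 higher in homozygous spleens.

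Stromal genes, the company of Pdgfra and Pdgfc in embryonic mesenchyme, were higher where they passed. Of 17 stroma markers 7 rose and none fell, with a median of 0.23. The largest rises were those of the collagen VI genes Col6a1 (1.17) and Col6a2 (1.14) and the mesenchymal homeobox gene Prrx1 (0.75). The other listed collagen VI gene, Col6a3, chosen after its values were seen, did not pass (−0.003, adjusted p = 0.984 in limma). Of the 17 estimates 14 lay above 0 and 3 below. The mean log2 value of the 17 markers was 0.33 higher in homozygous spleens. Set against that mean on the same array, Pdgfra was at 1.47 to 1.67 in heterozygous and 1.29 to 1.40 in homozygous spleens. Its estimate of 0.12 thus lay below the rise of the list mean. Pdgfc was at 0.71 to 0.81 and 0.63 to 0.72, with overlap. Markers of other cells moved too. In homozygous spleens 4 of 11 epithelial markers and 4 of 8 neuron markers were higher (medians 0.30 and 0.44). So were 3 of 7 neural crest and glia markers and 2 of 9 pancreas markers (medians 0.28 and 0.36). Of 10 erythroid markers 6 were lower (median −0.56). Over all genes tested 10.4% were higher and 6.56% lower. All 11 epithelial, all 8 neuron and all 9 pancreas estimates lay above 0. The pancreas gene Cpa1 rose by 1.77, from 534 ± 290 to 1664 ± 103 (SD, n = 3). Gcg, chosen after its values were seen, did not pass (2.28, adjusted p = 0.0986 in limma), and its groups overlapped. The same neural crest and glia list had 1 marker lower, the fatty acid binding protein gene Fabp7 (−1.38), which dropped from 317 to 121 on average. These counts shifted when 1 array was left out. Epithelial markers numbered 1 to 5, with 1 without heterozygous array 2 or homozygous array 1 and 2 without homozygous array 3. Pancreas markers numbered 1 without heterozygous array 2 or homozygous array 1 or 3 and 5 without homozygous array 2. Neural crest and glia markers that rose numbered 2 to 5, with 5 without homozygous array 2, and erythroid markers that fell numbered 3 to 6, with 3 without homozygous array 1. None of 12 macrophage markers and none of 8 liver markers passed in limma, where 3 and 1 had an unadjusted p below 0.05. On mesothelium, 1 of 10 rose and 1 fell. The part of these cell types in the changes of Pdgfb, Pdgfc, Pdgfd and Pdgfrb was not tested.

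**Figure D3:**
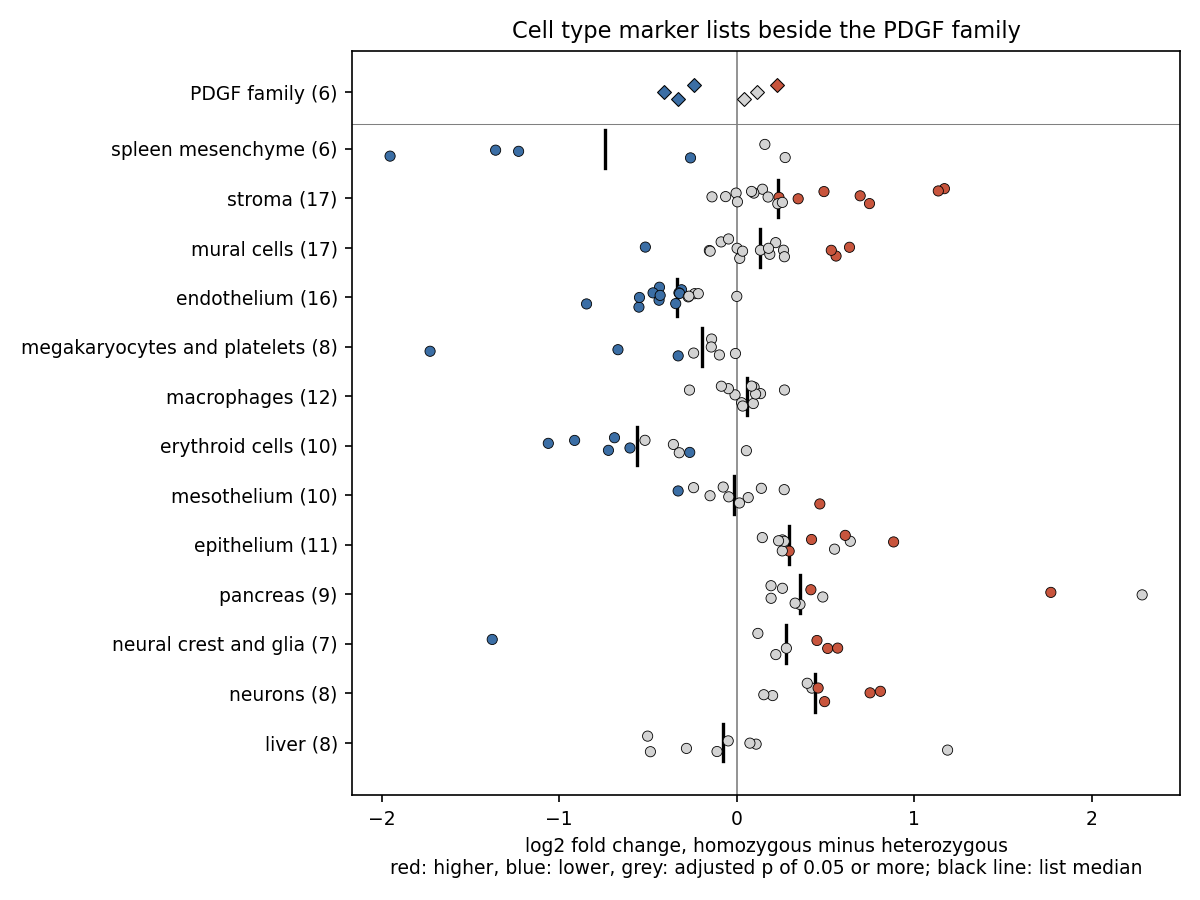
Log2 fold change, homozygous minus heterozygous, of every tested marker in 13 cell type lists (circles, black line at the list median, number tested in parentheses) and of the 6 PDGF members (diamonds), coloured by call. Of the 16 endothelial markers 15 lie left of 0, with a median of −0.33, mural and stroma markers lie mostly right of it, and the PDGF members lie on both sides.

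Genes that release and bind PDGF ligands moved in both directions. Of 10 genes of extracellular processing and binding 4 rose and 1 fell, with a median of 0.04. That is 40% higher and 10% lower, beside 10.4% and 6.56% of all genes tested. The 4 that rose became 1 to 3 when 1 array was left out, with 2 without heterozygous array 1 and 1 without heterozygous array 2 or homozygous array 1, and 2 to 4 under other settings. Nrp1, a co-receptor for PDGF and VEGF ligands, read 540, 540 and 684 in heterozygous and 895, 1076 and 819 in homozygous spleens. Its groups did not overlap, and it rose by 0.66 ± 0.12 (SE; adjusted p = 0.0109 in limma). Plat, the tissue plasminogen activator that frees PDGF-C from its CUB domain, rose by 0.35 ± 0.08 (adjusted p = 0.0225), in the same direction as Pdgfc. Its values were 751, 735 and 799 against 958, 1067 and 890. St14, an epithelial protease that can activate PDGF-D, rose by 0.37 ± 0.09 (adjusted p = 0.0267), from 73.4 ± 7.21 to 94.8 ± 6.99 (SD, n = 3). Plau, the other activator of PDGF-D, did not pass (0.01, adjusted p = 0.944) and was named after its value was known. The calls of Plat and St14 were lost in 3 of the 6 refits without 1 array, for Plat without heterozygous array 1 or 2 or homozygous array 1 and for St14 without heterozygous array 2 or homozygous array 1 or 3. That of St14 was also lost after cyclic loess (0.28), and that of Plat with the Y-linked level in the model (0.40, adjusted p = 0.0575 in limma).

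The convertases that cut the A and B chains did not move together. Pcsk6 fell from 280 ± 15.9 to 205 ± 7.15 (SD, n = 3), by 0.44 on the log2 scale (adjusted p = 0.00472 in limma), while Pcsk5, chosen after its values were seen, rose by 0.23 (adjusted p = 0.039). Furin (−0.17, adjusted p = 0.13) and Pcsk7 (−0.08, adjusted p = 0.49), also chosen after their values were seen, did not pass. Sparc, a matrix protein that binds PDGF-B, was at 0.00 ± 0.06 (SE), and Lrp1, a co-receptor of the beta receptor, at 0.07. Both were chosen after their values were seen.

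Genes that carry the receptor signal inside the cell were lower where they passed. Of 25 tested transducers 4 fell and none rose, 16% lower against 6.56% of all genes, with a median of −0.07 and 19 of 25 estimates below 0. Nck2, an adaptor that docks on the phosphorylated beta receptor, was at 646 ± 37.0 in heterozygous and 416 ± 14.8 in homozygous spleens (SD, n = 3) and fell by 0.63 ± 0.07 (SE; adjusted p = 0.00102 in limma). Its relative Nck1 was at −0.23 (adjusted p = 0.0494) and missed the threshold whichever array was left out (−0.28 to −0.20) and under 7 of 14 other settings. The kinase gene Prkca fell by 0.56 ± 0.07 (SE). The phosphoinositide kinase gene Pik3cb fell by 0.31 ± 0.08, but kept its call only without heterozygous array 2 or homozygous array 2. Across refits without 1 array 2 or 3 transducers were lower, with 2 without array 1 or 3 of either group, and Nck2 and Prkca were called in all 6. Under other settings 2 to 8 were lower and 0 to 1 higher.

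The genes that turn the receptors off had calls in both directions. Of 8 such genes 1 rose and 1 fell, 12.5% each way beside 10.4% higher and 6.56% lower of all genes tested. The median was −0.12, and 7 of the 8 estimates lay below 0. Cblb, a ubiquitin ligase, fell by 0.31 ± 0.06 (SE; adjusted p = 0.0146 in limma) and lost its call without homozygous array 1 (−0.27). Slc9a3r1, a scaffold that binds the PDGF receptor tail, rose by 0.28 ± 0.07 (adjusted p = 0.026) and kept its call only without heterozygous array 1 or homozygous array 2.

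Early response genes, which fibroblasts switch on within a short time of PDGF, showed rises whose calls were lost without certain arrays. Of 13 tested 3 rose and 1 fell, with a median of 0.12. That is 23.1% higher and 7.69% lower, beside 10.4% and 6.56% of all genes tested. The chemokine genes Cxcl1 (0.43, adjusted p = 0.0131 in limma) and Ccl2 (0.40, adjusted p = 0.0289) and the AP-1 gene Fosl1 (0.41, adjusted p = 0.0383) were higher, and Ier2 was lower (−0.26, adjusted p = 0.0381). Ccl2 and Fosl1 gave dim signals, with homozygous means of 59.8 ± 5.2 and 59.0 ± 8.93 (SD, n = 3). Without 1 array, 0 to 3 of the list were higher and none lower, as Ier2 lost its call in all 6 refits. With no homozygous array 1 the calls of Cxcl1 (0.37), Ccl2 and Fosl1 were all lost. Over all genes that refit called 699 higher and 499 lower, against 1951 and 1227 with all arrays. Across the 6 refits the estimates stayed at 0.37 to 0.50 for Cxcl1, 0.34 to 0.50 for Ccl2 and 0.30 to 0.51 for Fosl1. Among the classical immediate early genes, Fos (0.18), Egr1 (0.06) and Myc (0.12), chosen after their values were seen, did not pass (adjusted p = 0.313, 0.696 and 0.367 in limma).

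**Figure D4:**
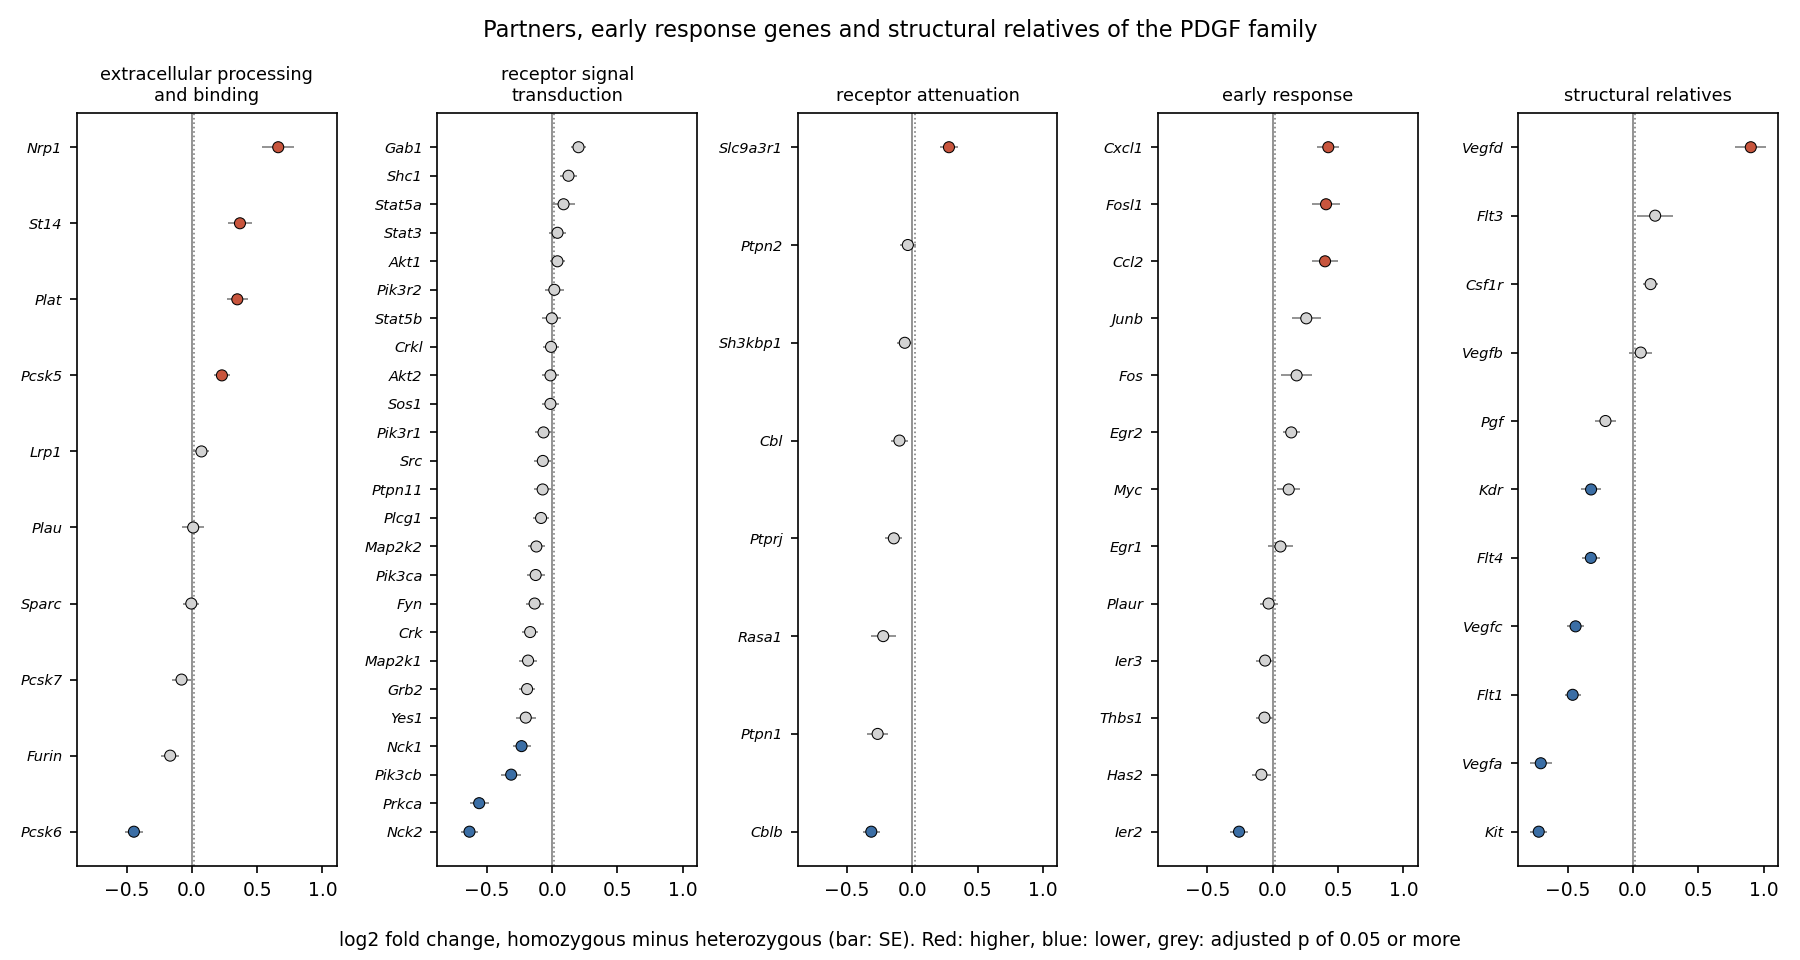
Log2 fold change with its SE for every tested gene of 5 lists around the PDGF system, coloured by call, with a dotted line at the median of all genes tested (0.02). Processing genes are spread from Pcsk6 at −0.44 to Nrp1 at 0.66, and 19 of the 25 transducers lie below 0.

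The structural relatives of the PDGF system were mostly lower where they passed. They are the VEGF ligands, their receptors and other receptors of the PDGF receptor class. Of 11 relatives 6 fell and 1 rose, with a median of −0.32. That is 54.5% lower and 9.09% higher, beside 6.56% and 10.4% of all genes tested. Kdr, 1 of those that fell, is also counted among the endothelial markers. Kit, the stem cell factor receptor and a member of the same receptor class as the PDGF receptors, fell from 521 ± 17.4 to 315 ± 13.7 (SD, n = 3). Vegfa fell by 0.71 ± 0.08 and its receptor gene Flt1 by 0.46 ± 0.06 (SE), whereas Vegfd rose from 257 ± 35.7 to 480 ± 54.4 (SD, n = 3). Kit and Kdr, a VEGF receptor gene chosen after its values were seen, are the next protein-coding genes after Pdgfra in the RefSeq gene order (GRCm38.p6). Kit was at −0.72 ± 0.06 and Kdr at −0.32 ± 0.08 (SE), beside Pdgfra at 0.12 ± 0.07. On the other side of Pdgfra, Gsx2 did not pass (0.20, adjusted p = 0.156 in limma), and it too was chosen after its values were seen.

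For each member the genes with the most similar pattern were taken by Pearson's r of the log2 values over the 6 arrays, among all genes tested. The arrays share normalization and 2 groups, so r near 1 was common, and it is given as a description. Pdgfrb was most like the nuclear body gene Sp140, the G protein subunit gene Gng11 and Uprt (r = 0.998 for each), and these fell by 0.50, 0.75 and 0.27. For Pdgfb the nearest were the ribonuclease subunit gene Rnaseh2b, the histone gene H4c4 and Rflnb (0.998, 0.997 and 0.997). None of these 3 passed, at −0.18, −0.23 and −0.22, and H4c4 belongs to a family of near-identical copies and is uncertain. Pdgfd was nearest to Cap2, Stk10 and St6galnac4 (0.996, 0.996 and 0.995), of which Cap2 (−0.39) and St6galnac4 (−0.28) passed. The neighbours of Pdgfc were Tshz1, the BMP ligand gene Bmp5 and the amino acid transporter gene Slc7a2 (0.997 each). Bmp5 rose by 0.62 ± 0.08 (SE) and Slc7a2 by 0.20 ± 0.06, while Tshz1 did not pass (0.19). Slc7a2 kept its call in none of the 6 refits without 1 array. Pdgfra was most like Tut4, Gpr18 and Retreg1 (0.996, 0.992 and 0.988), and Pdgfa like Mb21d2, Kap and S1pr4 (0.996, 0.993 and 0.987). None of these last 6 passed. With r above 0.95 there were 423 genes for Pdgfrb, 314 for Pdgfb, 220 for Pdgfc, 154 for Pdgfd, 60 for Pdgfra and 53 for Pdgfa.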

How the data were processed

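Values are the deposited intensities of 6 arrays, which per the submitters' processing notes the authors computed by GCRMA, a method of background correction by probe sequence, normalization between arrays and summary per probe set. Version and build: not given in the sources used here. Values are linear, so log2(intensity + 1) was used, and the added 1 pulls changes of dim genes toward 0. Of 35512 probe sets, 21789 had 1 gene symbol in the platform annotation, 20424 of these passed the filter, and the brightest per gene gave 18710 genes. Homozygous minus heterozygous was tested two-sided by lmFit and eBayes of limma 3.58.1 (R 4.3.3), with no covariate. The fit was tested on simulated data. Of 226 list genes 206 were tested, and the others were not analysed here. Lists are described by counts and medians, without a set test. The replicate number was tried as a block although the labels tie it to no shared litter or day, and same-numbered arrays did not deviate together. The members and lists were chosen with earlier results of these data known. Named genes are the members, Tlx1, up to 4 called genes with the largest change per PDGF list (up to 3 per marker list, or the 2 with the smallest p), and the 3 most similar genes per member, without predicted and clone names. The number of arrays limits the precision.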

Additional observations from a re-analysis of the deposited data

How the results depend on the processing

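Every member kept its direction under all 14 other settings and all 6 refits without 1 array, and Pdgfa and Pdgfra passed in none of them. Pdgfb kept its call under all 14 settings. Pdgfc lost its call after median centring (0.21, adjusted p = 0.054 in limma) and Pdgfrb after cyclic loess (−0.20, adjusted p = 0.0562). With the replicate number as a block Pdgfc (0.23, adjusted p = 0.0603) and Pdgfrb (−0.24, adjusted p = 0.0624) did not pass, and Pdgfb and Pdgfd did. Same-numbered arrays correlated at −0.01, 0.04 and −0.11 in their deviations from the group means, so the numbers are not shown to pair the samples. Adding the Y-linked level to the model gave 0.21 for Pdgfc, −0.34 for Pdgfd and −0.25 for Pdgfrb, none of which passed, and 1140 genes were higher and 507 lower in all. Without 1 array the log2 fold changes ranged from −0.48 to −0.36 for Pdgfb, from 0.21 to 0.25 for Pdgfc, from −0.39 to −0.25 for Pdgfd and from −0.26 to −0.21 for Pdgfrb, with 699 to 2319 genes higher and 499 to 1244 lower. Fewer samples or degrees of freedom enter the refits, the block and the covariate fit. Whether this accounts for the calls lost there was not tested, and for median centring and cyclic loess the cause was not tested either. Of the named genes that are no members, none changed direction. Among those with a call, Nck1 lost it under 7 of 14 other settings, Ier2 and Slc7a2 under 4, Fosl1 under 3 of 13, Pik3cb, Uprt and St6galnac4 under 2, and Plat, St14, Cblb, Slc9a3r1, Cxcl1, Ccl2, Cap2, Cldn6, Cpa1, Epcam, Rhag and Wt1 under 1. Among those without, Tshz1 and Mrc1 passed under 7, H4c4 and Rflnb under 5, Rnaseh2b and Tut4 under 3, and Stk10, Lyz2 and Ttr under 1.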

Other observations

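Pdgfrl encodes a secreted protein that resembles the ligand-binding part of the PDGF receptors and is no receptor kinase. It was chosen after its values were seen. Its intensity was 142, 141 and 126 on heterozygous and 196, 175 and 208 on homozygous arrays, and all homozygous values lay above all heterozygous ones. It rose 1.41-fold, with a log2 fold change of 0.50 ± 0.08 (SE) and an adjusted p of 0.00751 in limma, and 98.0% of the genes tested had a lower log2 fold change.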
